A study of Mus musculus with 6 samples.

Results

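The genes described here are 10 markers of intestinal tuft cells, listed by name as genes in common use for that cell type: the transcription factors Pou2f3 and Gfi1b, the ion channel Trpm5, the receptor Sucnr1, the cytokine Il25, the enzymes Alox5 and Hpgds, and Avil, Dclk1 and Sh2d6. The rule uses no measured value, but the genes were chosen with earlier results of these data known. Of the 10 genes 9 had a probe that could be named, out of 23462 named genes on the array, and no named probe was found for Sh2d6. The 9 genes had 14 probes, of which 11 probes of 8 genes were bright enough to be tested, among 35351 tested probes in all.

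The study compared mouse colon RNA between 3 control and 3 Islr knockout males, with 1 single-colour Agilent array per animal. Islr encodes a secreted immunoglobulin-superfamily protein with leucine-rich repeats that is made by stromal cells. According to the sample source, all 6 mice, controls included, drank 3.5% dextran sulfate sodium (DSS), which injures the colonic epithelium, for 5 days and then recovered for 1 day. A separate field of the labels says that no treatment was given, so the course is stated as the source has it. Strain, age, and the allele or driver behind the knockout are not given in the sources used here. The design text mentions flow separation into TRIzol without naming a sorted population, and the arrays carried signals of epithelial, stromal and nerve markers.

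Tuft cells are rare chemosensory cells of the gut epithelium. They detect luminal metabolites such as succinate through G protein-coupled receptors and a signalling chain shared with taste cells, which ends in the opening of the cation channel TRPM5. When activated they release interleukin-25, cysteinyl leukotrienes and prostaglandin D2, which act on group 2 innate lymphoid cells and other type 2 immune cells, and the interleukin-13 made in turn increases tuft and goblet cells. Several of these genes are not private to tuft cells: Dclk1 and Avil are also made by neurons, Alox5 and Hpgds by myeloid and mast cells, Gfi1b by megakaryocytes and red cell precursors, and Pou2f3 by squamous epithelium.

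Levels below are log2 signals after subtraction of the same array's 75th percentile, so that 0 is that percentile, and differences are knockout minus control on that log2 scale. Where 3 values are given for a group, they are those of replicates 1, 2 and 3 in that order. A probe was called when its limma p, adjusted by Benjamini-Hochberg over all tested probes, was under 0.05. The 75th percentile itself lay between 6353 and 7110 intensity units in controls and between 4910.5 and 5820 in knockouts. Every knockout array was thus dimmer than every control array, and the unscaled signals given below carry that difference. Between 69.4% and 75.4% of spots were well above background, and between 3.26% and 16.0% were marked as outlier spots and left out. The arrays shared 1 slide, with all controls in row 1 and all knockouts in row 2, so that position and genotype cannot be told apart. The targeted gene was lower in the arrays labelled knockout by 2.44 (SE 0.21, adjusted p 0.0171; 0.0580 without knockout replicate 3), from 1.23 ± 0.018 (SD, n = 2) to -1.21 ± 0.25 (SD, n = 3). Calls depended on single arrays. Every gene named below as called by its brightest tested probe, Islr included, lost that call in at least 1 fit with an array left out. The adjusted p values there reached up to 0.152. Control replicate 2 stood apart in its epithelial signal: the mean level of 15 pan-epithelial genes was 2.07, -0.07 and 1.56 in the control arrays and 2.84, 2.44 and 2.45 in the knockout arrays.

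Among the tuft cell genes the knockout colons had a higher Trpm5 signal, by 4.44-fold, and this was the only gene of the 8 tested that was called. Of the 8 tested genes 7 had a higher mean in knockouts and 1, Dclk1, a lower one, with a median difference of 0.56 against 5.75e-05 over all tested probes. Of the 7, Pou2f3 and Gfi1b were tested only because their spots were well above background on all 3 knockout arrays, the group where they were higher. Over probes well above background on all 6 arrays, 5 of 6 genes were higher, with a median of 0.39. The count of higher genes was 5 to 7 of the genes tested in the other settings, and 1 to 3 when levels were taken relative to pan-epithelial genes. That centring lowers the differences of all probes: the median of all tested probes became -1.41, and -0.73 without control replicate 2, while that of the tuft cell genes became -0.86 and -0.04. In RNA from mixed cells, fewer cells of a type and less RNA per cell cannot be told apart.

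Of the 11 tested probes 1 was called, where 3.97% of all tested probes were called in either direction. By direction, 1 was called higher and 0 lower, against 1.55% and 2.42% of all tested probes. An unadjusted p under 0.05 was reached by 6 of the 11 probes, in 5 genes, and by 26.8% of all tested probes. Of 9 tested probes with a usable spot on all 6 arrays, 4 had groups that did not overlap, each with the knockouts above, while 34.5% of all such probes had groups that did not overlap in either direction. The 4 were probes of Trpm5, Pou2f3, Il25 and Avil. The Pou2f3 probe was tested only because of its signal on the knockout arrays. The same holds for the Gfi1b probe, and both are among the 5 genes with an unadjusted p under 0.05.

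**Figure D1:**
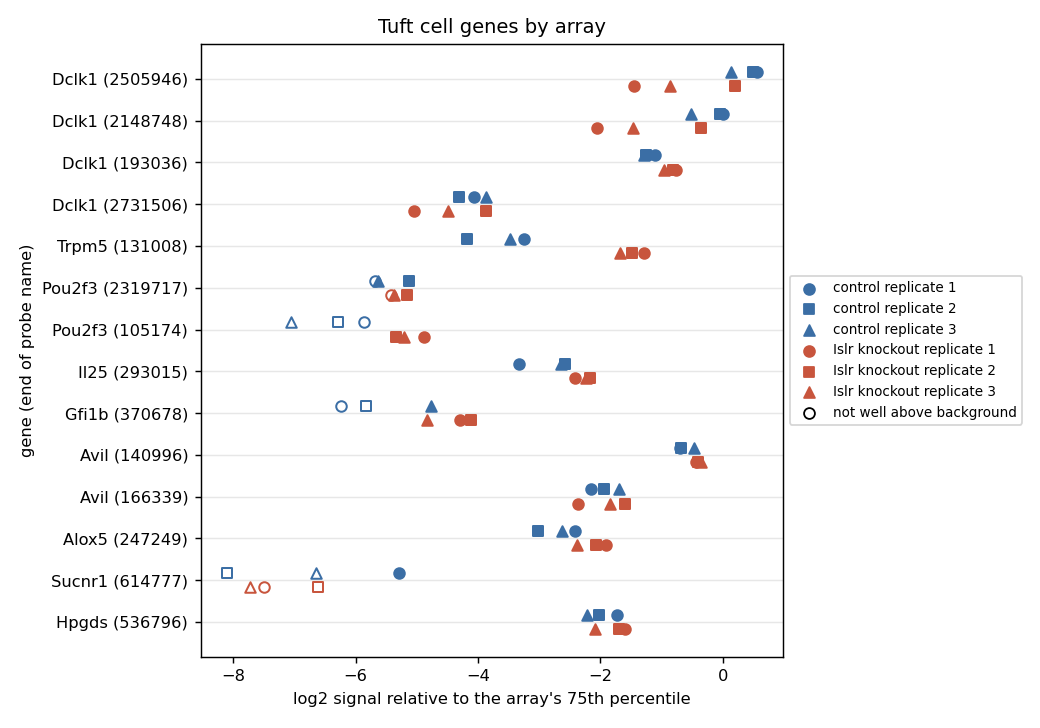
Log2 level (0 is the array's 75th percentile) for all 14 probes of the 9 tuft cell genes, 1 point per array, with controls in blue, Islr knockouts in red and open symbols where the spot was not well above background. The groups lie furthest apart at Trpm5, where knockouts sit between -1.67 and -1.29 and controls between -4.18 and -3.25, while the 2 upper Dclk1 rows spread widely among the knockouts.

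Pou2f3 encodes the POU-domain transcription factor on which tuft cell formation depends. Its probe A_66_P105174 was dim, with signals of 109, 90.6 and 49.4 intensity units in the control arrays and 167, 144 and 155 in the knockout arrays. Every knockout exceeded every control, but the spot was well above background on none of the 3 control arrays and on all 3 knockout arrays, so the size of the difference has only a bound. Measured against the dimmest signal that still counted as detected on each control array, the knockout signal was at least 1.58-fold higher. The fitted difference was 1.26 (SE 0.32, adjusted p 0.0710), which missed the threshold, and the exact permutation test gave 0.1, the smallest two-sided value that 3 against 3 arrays allow. Without control replicate 1 the difference was 1.53 and was called (adjusted p 0.0443), and with array weights it was 1.29 and was called (adjusted p 0.0224). A second Pou2f3 probe, A_55_P2319717, was well above background on 2 arrays of each group and was not tested, and its groups overlapped, at -5.48 ± 0.31 among controls and -5.32 ± 0.14 among knockouts (SD, n = 3 each). Squamous epithelium also makes Pou2f3: of 10 tested squamous genes 8 were higher and 2 lower with 0 called (4 with an unadjusted p under 0.05), the defining markers Trp63 and Krt5 differed by 0.14 (SE 0.16) and -0.35 (SE 0.60), and the list's summed linear signal, in units of the array's 75th percentile, was 10.3 to 12.5 in controls and 12.2 to 13.2 in knockouts. That sum is weighted towards the brightest probe of the list, that of Trp63, at mean levels of 3.21 in controls and 3.35 in knockouts. The largest squamous differences, named after their values were seen, were those of the keratins Krt14 (1.23, SE 0.38, adjusted p 0.105) and Krt15 (1.18, SE 0.28, adjusted p 0.0640), both with every knockout above every control. The part of squamous tissue in the Pou2f3 values was not tested.

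Gfi1b encodes a zinc-finger repressor that marks tuft cells in the gut and is required in the megakaryocyte and red cell lineages. Its levels were -6.24, -5.84 and -4.76 in the control arrays and -4.29, -4.11 and -4.84 in the knockout arrays. The groups overlapped, since control replicate 3 lay above knockout replicate 3, and only that control array was well above background. The difference of 1.20 (SE 0.40) was not called (adjusted p 0.120; exact permutation p = 0.2). Of 7 tested genes of megakaryocytes, platelets and red cell precursors 6 were lower, and 2 of them were called: Ppbp, a platelet chemokine, at least 6.99-fold lower, as no knockout array was well above background (adjusted p 0.0170), and Hbb-b1, a beta-globin, by -2.18 (SE 0.34, adjusted p 0.0396). The summed signal of that list was 4.48 to 8.83 in controls and 2.76 to 2.96 in knockouts, and Itga2b differed by -0.28 (SE 0.20).

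Trpm5 encodes the calcium-activated cation channel at the end of the taste-type chain. Its single probe, A_66_P131008, was clearly detected on all 6 arrays, with signals of 669, 392 and 587 intensity units in the control arrays and 2008, 2071 and 1809 in the knockout arrays. The knockouts lay close together and far above every control, among which control replicate 2 was the lowest. On the log2 scale the levels were -3.63 ± 0.49 among controls and -1.49 ± 0.19 among knockouts (SD, n = 3 each). The difference was 2.15 (SE 0.27, 95% interval 1.51 to 2.79) with an adjusted p of 0.0251 in limma, and the exact permutation test gave its smallest possible value, p = 0.1. With an array left out the difference stayed between 1.88 and 2.34, and the call was kept without control replicate 1 and without knockout replicate 2. It was lost without control replicate 2 (adjusted p 0.0524), control replicate 3 (0.0661), knockout replicate 1 (0.0583) and knockout replicate 3 (0.0646).

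The epithelial signal of the arrays moved with Trpm5. All 15 tested pan-epithelial genes had higher means in knockouts, with a median of 1.40 and 0 called (8 with an unadjusted p under 0.05), Krt8, an epithelial keratin, differed by 0.68 (SE 0.44), and the list's summed signal was 28.7 to 90.1 in controls and 112 to 151 in knockouts. Their mean level was 1.39 higher in knockouts, or 0.76 without control replicate 2 (exact permutation p = 0.1 over all 6 arrays). Relative to that mean, Trpm5 stood at -5.32, -4.11 and -5.04 in the control arrays and at -4.13, -3.93 and -4.13 in the knockout arrays. Control replicate 2 then lay among the knockouts, and the difference of 0.76 (SE 0.77) was not called (adjusted p 0.358; exact permutation p = 0.3). That setting gave each probe named here with 6 usable arrays the same SE. The missing call therefore does not rest on the spread of Trpm5 itself, with SDs of 0.63 among controls and 0.11 among knockouts. With control replicate 2 left out as well, the Trpm5 difference was 1.12 (SE 0.37, adjusted p 0.101). This centring moved the median of all tested probes to -1.41, and to -0.73 without that array. Goblet cell genes were higher in 9 of 9 tested with a median of 1.00 and 0 called (1 with an unadjusted p under 0.05), and Muc2, the main gel-forming mucin, differed by 1.00 (SE 0.53). Enteroendocrine genes were higher in 7 of 9 with a median of 0.43 and 0 called (0 with an unadjusted p under 0.05), and Chga, a granin of hormone granules, differed by 0.56 (SE 0.43). Relative to pan-epithelial genes, Muc2 and Chga were lower, at -0.39 and -0.82. The part of epithelial content in the Trpm5 difference was not tested beyond these values.

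**Figure D2:**
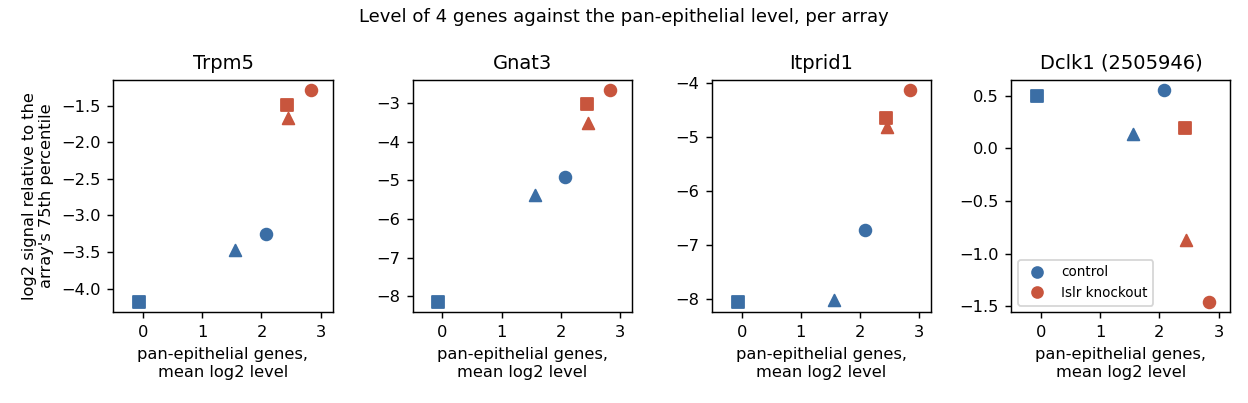
Log2 level of Trpm5, Gnat3, Itprid1 and Dclk1 (probe A_55_P2505946) on each array against the mean log2 level of 15 pan-epithelial genes on the same array, with controls in blue and knockouts in red; circles, squares and triangles are replicates 1, 2 and 3. Control replicate 2 sits alone at the left at -0.07, and the knockouts sit between 2.44 and 2.84.

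The promoter of Trpm5 is shown because this was the called gene. Sequences are the 250 bases before the start of transcription on the gene's strand, from RefSeq on assembly GRCm38.p6, and lie at chr7:143094643-143094892 (minus strand) for Trpm5. The octamer ATGCAAAT, the letters that POU-family factors are known to bind, was searched on both strands of all 300-base windows around start sites and is not in the Trpm5 window.
Trpm5: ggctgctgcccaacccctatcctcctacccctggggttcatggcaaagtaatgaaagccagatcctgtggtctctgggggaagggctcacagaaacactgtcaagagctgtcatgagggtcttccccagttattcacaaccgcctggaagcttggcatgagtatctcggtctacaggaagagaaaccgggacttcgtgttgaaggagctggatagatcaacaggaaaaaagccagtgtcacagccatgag

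Of the 10 genes all but Pou2f3 and Il25 had start-site windows, 9 in all as Dclk1 has 2, and 2 of the 9 held the octamer, against 570 of 32851 windows over all genes (1.735%). They are shown with the octamer in capitals because they are the only 2: Sucnr1 at chr3:60081619-60081868 (plus strand), with the octamer beginning 48 bases before the start, and Hpgds at chr6:65144731-65144980 (minus strand), with it 174 bases before the start. A match of letters is a description and not a binding site.
Sucnr1: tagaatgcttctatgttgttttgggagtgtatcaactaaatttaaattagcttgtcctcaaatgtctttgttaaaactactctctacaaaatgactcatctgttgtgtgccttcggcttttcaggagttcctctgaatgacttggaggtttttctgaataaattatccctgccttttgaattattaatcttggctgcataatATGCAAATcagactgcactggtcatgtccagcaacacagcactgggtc
Hpgds: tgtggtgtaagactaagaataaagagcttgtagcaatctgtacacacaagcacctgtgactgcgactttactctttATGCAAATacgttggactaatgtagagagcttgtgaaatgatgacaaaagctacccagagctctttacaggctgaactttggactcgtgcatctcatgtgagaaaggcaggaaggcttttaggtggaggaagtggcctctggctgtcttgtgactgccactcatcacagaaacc

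Sucnr1 encodes the succinate receptor, through which small-intestinal tuft cells respond to microbial succinate, and it is also made by macrophages. Its probe, A_52_P614777, gave signals of 161, 26.0 and 65.5 intensity units in the control arrays and 27.3, 59.4 and 27.2 in the knockout arrays. It was well above background on control replicate 1 alone, so it was not tested and no fold is given. The groups overlapped.

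Il25 encodes interleukin-25, the tuft cell cytokine that activates group 2 innate lymphoid cells. Its levels were -3.33, -2.58 and -2.65 in the control arrays and -2.42, -2.16 and -2.23 in the knockout arrays. All 3 knockouts lay above all 3 controls by a narrow margin, and control replicate 1 was the lowest. The difference of 0.58 (SE 0.24, 95% interval 0.02 to 1.14) was not called (adjusted p 0.175; exact permutation p = 0.1). Before scaling, the signals were 632, 1188 and 1041 intensity units in controls and 915, 1299 and 1229 in knockouts, and the groups overlapped. Relative to pan-epithelial genes the difference was -0.81, and -0.04 without control replicate 2.

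Alox5 and Hpgds make the lipid signals of tuft cells. Alox5, the 5-lipoxygenase that begins leukotriene synthesis, had levels of -2.42, -3.03 and -2.63 in the control arrays and -1.90, -2.07 and -2.38 in the knockout arrays. The knockouts lay above the controls, with the outlier spot of knockout replicate 2 counted. Without that spot the difference was 0.55 (SE 0.27) over 3 controls and 2 knockouts and was not called (adjusted p 0.252). Relative to pan-epithelial genes it was -0.91. Hpgds, the hematopoietic prostaglandin D synthase, had levels of -1.73, -2.02 and -2.21 in the control arrays and -1.60, -1.69 and -2.10 in the knockout arrays. These values overlapped, and the difference of 0.22 (SE 0.24), from 2 usable arrays per group, was not called (adjusted p 0.603).

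Among other cells that make these enzymes, genes of macrophages, neutrophils, and mast cells and basophils were mostly lower in knockouts. Of 7 tested eosinophil genes, described further below, 5 were higher and 2 lower, with a median of 0.28. All 8 tested macrophage genes had lower means, with a median of -0.81 and 0 called (5 with an unadjusted p under 0.05), Csf1r, the receptor that sustains macrophages, differed by -0.37 (SE 0.21) and Adgre1 by -0.96 (SE 0.27), and the summed signal was 22.1 to 31.5 in controls and 13.1 to 20.4 in knockouts. Of 10 tested neutrophil genes 7 were called lower and 1 higher. Retnlg fell by 4.47 (SE 0.39, adjusted p 0.0173) and S100a8 fell by 3.92 (SE 0.53, adjusted p 0.0327), while Ltf rose by 3.66 (SE 0.45, adjusted p 0.0299). The summed neutrophil signal was 32.0 to 35.5 in controls and 27.1 to 29.4 in knockouts. That sum is weighted towards bright probes that were not lower, such as those of Csf3r (0.17, SE 0.14) and Trem1 (0.18, SE 0.16). Of 6 tested mast cell and basophil genes 4 were lower and 2 higher (3 and 3 with array weights or without control replicate 1 or 3), and Hdc, which makes histamine, fell by 2.40 (SE 0.40, adjusted p 0.0441). Tpsb2, a mast cell tryptase named after its values were seen, was higher in every knockout, by 0.80 (SE 0.23, adjusted p 0.0933). Cpa3 and Fcer1a were well above background on 2 control arrays and on 0 knockout arrays, and the mast cell and basophil sum was 2.53 to 3.62 in controls and 1.90 to 2.52 in knockouts. The part of these cells in the Alox5 and Hpgds values was not tested.

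The other genes that tuft cells use for lipid mediators and acetylcholine did not all move one way. Of 6 tested genes 2 were higher and 4 lower, with a median of -0.51 (4 with an unadjusted p under 0.05). With outlier spots kept, 1 of 7 was higher and 6 were lower, with a median of -0.61. Pla2g4a, the phospholipase that releases arachidonic acid, fell by 1.03 (SE 0.18, adjusted p 0.0468), from 1.43 ± 0.16 in controls (SD, n = 3) to 0.40 ± 0.016 in knockouts (SD, n = 2), and was the only call. The call was lost without control replicate 2 (adjusted p 0.152), control replicate 3 (0.127) or knockout replicate 1 (0.0648). Ltc4s, the leukotriene C4 synthase, was 0.68 higher (SE 0.19, adjusted p 0.0851), and -0.70 when set relative to pan-epithelial genes. Ggt5, which processes leukotriene C4 further, had the lowest difference at -1.48 (SE 0.38, adjusted p 0.0738). Both genes had groups that did not overlap, in opposite directions. The list's summed signal was 9.41 to 10.6 in controls and 6.34 to 8.14 in knockouts.

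Avil encodes advillin, an actin-bundling protein of the tuft cell's microvilli that sensory neurons also make. Its brighter probe, A_66_P140996, had levels of -0.70, -0.69 and -0.47 in the control arrays and -0.44, -0.41 and -0.36 in the knockout arrays. The knockouts lay just above the controls, though the unscaled signals overlapped. The difference was 0.22 (SE 0.14, 95% interval -0.13 to 0.56) and was not called (adjusted p 0.376; exact permutation p = 0.1). The second probe, A_51_P166339, differed by -0.01 (SE 0.24, adjusted p 0.987), with overlapping groups, so the probes gave no common direction.

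Dclk1 encodes a doublecortin-like kinase that is the most used tuft cell marker in the mouse intestine and is abundant in neurons. It was the only tested gene of the set with a lower mean in knockouts, and all 3 of its tested probes were lower. At A_55_P2505946, assigned to transcript NM_001111053, the levels were 0.55, 0.50 and 0.14 in the control arrays and -1.46, 0.19 and -0.87 in the knockout arrays. Knockout replicates 1 and 3 lay below the controls and knockout replicate 2 lay among them, although the unscaled signals of every knockout were below those of every control. The difference was -1.11 (SE 0.41, 95% interval -2.08 to -0.13) and was not called (adjusted p 0.146; exact permutation p = 0.2).

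A second probe of the same transcript, A_55_P2148748, stood at 0.01, -0.05 and -0.51 in the control arrays and at -2.06, -0.36 and -1.47 in the knockout arrays, and differed by -1.11 (SE 0.43, adjusted p 0.158). Its levels overlapped too, and its unscaled signals did not. Without knockout replicate 2 both probes were called, at -1.56 (adjusted p 0.0436) and -1.58 (adjusted p 0.0460). Relative to pan-epithelial genes both were also called, at -2.49 and -2.50, in a setting that called 3768 of 35351 probes lower and 51 higher and gave each probe named here with 6 usable arrays the same SE of 0.77, so that these calls do not rest on the spread of Dclk1 itself. The exact permutation test of the first probe gave p = 0.1 there. With control replicate 2 left out as well, the first was at -1.81 and was not called (adjusted p 0.0896). Of the probes assigned to transcript NM_019978, A_55_P2731506 overlapped between groups and differed by -0.38 (SE 0.31, adjusted p 0.467). The other, A_51_P193036, could not be tested, as its spot was marked as an outlier on 2 control and 3 knockout arrays. With those spots kept, its levels were higher in all 3 knockouts, at -1.10, -1.25 and -1.29 in controls and -0.76, -0.81 and -0.96 in knockouts, while its unscaled signals overlapped and relative to pan-epithelial genes it was lower by -1.02.

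Dclk1 has 2 listed start sites 219364 bases apart, and both upstream windows are shown because its probes belong to 2 transcripts; the tables do not pair them with the transcripts above. They lie at chr3:55242114-55242363 and chr3:55461478-55461727, both on the plus strand, and neither holds the octamer.
Dclk1 first start: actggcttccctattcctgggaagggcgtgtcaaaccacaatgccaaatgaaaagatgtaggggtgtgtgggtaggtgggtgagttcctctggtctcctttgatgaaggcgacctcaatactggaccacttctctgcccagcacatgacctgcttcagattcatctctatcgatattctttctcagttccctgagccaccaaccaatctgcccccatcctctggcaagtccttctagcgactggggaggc
Dclk1 second start: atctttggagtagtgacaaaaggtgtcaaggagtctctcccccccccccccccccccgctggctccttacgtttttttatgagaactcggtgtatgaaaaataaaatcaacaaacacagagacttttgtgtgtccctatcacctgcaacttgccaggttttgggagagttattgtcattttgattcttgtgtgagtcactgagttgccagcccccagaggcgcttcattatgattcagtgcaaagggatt

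Of 9 tested genes of enteric neurons and glia, other makers of Dclk1 and Avil, 7 were lower with a median of -0.22 and 0 called (2 with an unadjusted p under 0.05). Their summed signal was 20.6 to 23.0 in controls and 19.8 to 20.5 in knockouts. All 9 tested fibroblast genes had lower means, and Twist2 and Pdgfrb were called, at -3.87 (SE 0.38, adjusted p 0.0169) and -1.17 (SE 0.20, adjusted p 0.0395). The fibroblast sum was 41.2 to 47.0 in controls and 26.3 to 35.0 in knockouts. The part of neurons and fibroblasts in the Dclk1 values was not tested.

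**Figure D3:**
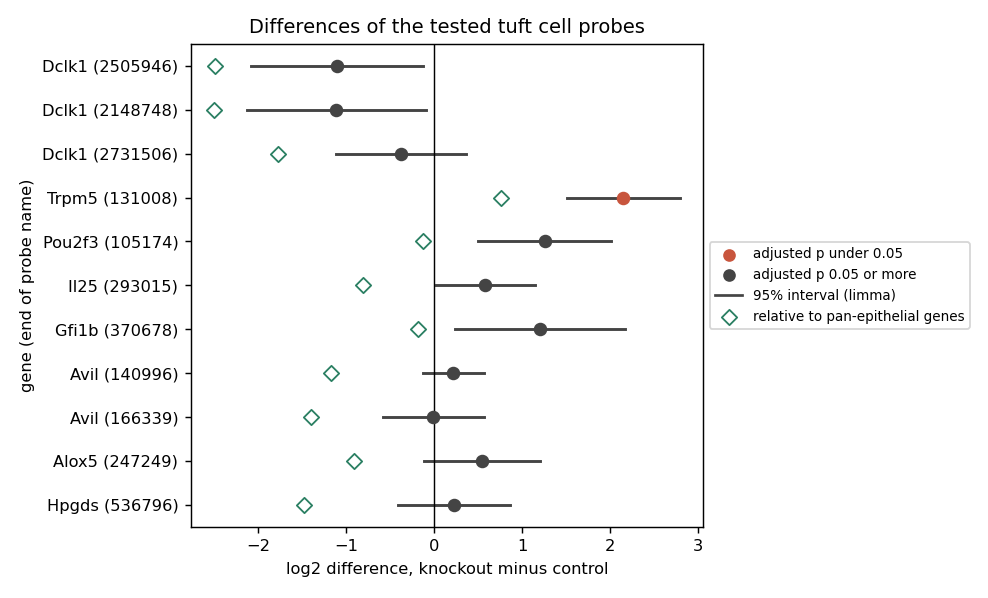
Log2 difference, knockout minus control, of the 11 tested tuft cell probes with limma's 95% interval (lines), in red where the adjusted p is under 0.05; open diamonds give the same difference relative to 15 pan-epithelial genes. Trpm5 alone is red at 2.15, its diamond is at 0.76, and the diamonds of every other probe lie below 0.

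The genes listed for taste-type signalling beside Trpm5 did not move in a common direction. Of 10 tested genes 4 were higher and 6 lower, with a median of -0.05 and 0 called (2 with an unadjusted p under 0.05). Gnat3, the alpha subunit of the taste G protein gustducin, had the highest difference, with levels of -4.92, -8.14 and -5.37 in the control arrays and -2.67, -3.01 and -3.51 in the knockout arrays. Every knockout lay above every control, and control replicate 2 was far below the rest and not well above background. The difference of 3.08 (SE 0.81) missed the threshold (adjusted p 0.0772). It was called with normexp (1.80, adjusted p 0.0268), with normexp and quantile normalization (1.70, adjusted p 0.0357) and with array weights (3.68, adjusted p 0.0285), and 2 genes of the list were called higher in each of these settings. Relative to pan-epithelial genes it was 1.69, still with no overlap (exact permutation p = 0.1). Like Pou2f3, Gnat3 was tested only because of its signal on the knockout arrays, the group where it was higher. Over probes well above background on all 6 arrays, 3 of 9 genes of the list were higher, with 0 called. Gnat3 and Itpr3 were the 2 genes with an unadjusted p under 0.05. Itpr3, named after its values were seen, differed by 0.82 (SE 0.20, adjusted p 0.0745), with every knockout above every control when outlier spots were kept. Relative to pan-epithelial genes, 1 of the 10 listed genes was higher. The lowest difference was that of Gnb3, a beta subunit of the same kind of G protein, at -0.42 (SE 0.27, adjusted p 0.364).

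Among 30 further tuft cell markers 28 were tested, of which 21 were higher and 7 lower, with a median of 0.31. In the settings other than pan-epithelial centring 19 to 23 were higher, and relative to pan-epithelial genes 5 to 9 were. Of these 30 genes Krt18 and Vil1 are also pan-epithelial markers and Siglecf is also an eosinophil marker. The 2 called genes were both higher. Trim38, a ubiquitin ligase, had levels of -3.98, -5.58 and -4.80 in the control arrays and -2.36, -2.49 and -2.98 in the knockout arrays, a difference of 2.18 (SE 0.41, adjusted p 0.0444). Itprid1, listed under its older name Ccdc129, was above background on 0 control arrays and 3 knockout arrays and was at least 2.41-fold higher in knockouts (fitted difference 3.07, SE 0.40, adjusted p 0.0260). Itprid1 and Ly6g6f, another gene of this list, passed the filter only by their signal on the knockout arrays, where both were higher. When a probe had to be well above background on all 6 arrays, the list had 26 tested genes and 1 call. Of these 26, 19 lay higher in knockouts and 7 lower, and the median difference was 0.29. Relative to pan-epithelial genes the groups of Trim38 and Itprid1 still did not overlap, with differences of 0.79 and 1.68 (exact permutation p = 0.1 for each). The value of Itprid1 rests on control signals that were not well above background. Neither gene was called relative to pan-epithelial genes (adjusted p 0.342 and 0.0983), a setting whose SE does not rest on the spread of either gene. Without control replicate 2 neither was called (adjusted p 0.0924 and 0.0730). With other arrays left out, Trim38 kept its call without control replicate 1 alone, and Itprid1 without control replicate 1 or knockout replicate 2. The lowest difference was that of Nrep, at -0.59 (SE 0.18, adjusted p 0.0972).

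Genes of the circuit between tuft cells and type 2 immune cells were mostly lower. Of 16 tested genes 4 were higher and 12 lower, with a median of -0.59. By their brightest tested probes 2 genes were called, both lower. Klrg1 was not called by that probe (-1.28, SE 0.31, adjusted p 0.0671), but 1 of its 2 tested probes was called lower. That call was not followed with arrays left out. Il1rl1, the interleukin-33 receptor of group 2 lymphoid and mast cells, had levels of -0.77, 0.53 and 0.56 in the control arrays and -4.02, -2.64 and -2.55 in the knockout arrays. Both of its tested probes were called, and the brighter one fell by 3.18 (SE 0.52, adjusted p 0.0358). Tslp, an epithelial and stromal cytokine that favours type 2 responses, fell from -2.68 ± 0.58 to -4.68 ± 0.47 (SD, n = 3 each; SE of the difference 0.36, adjusted p 0.0419), with every knockout below every control. Il1rl1 kept its call without control replicate 1 or knockout replicate 2 and lost it without any of the other arrays (adjusted p 0.0661 to 0.0971). Tslp kept its call without control replicate 1 and lost it without any of the other arrays (adjusted p 0.0589 to 0.112). The highest difference was that of Retnlb, a goblet cell product induced by interleukin-13, at 2.08 (SE 0.76, adjusted p 0.175), with overlapping groups. Of the lymphocyte cytokines of the circuit, Il13, Il5 and Il9 were well above background on 0 of 6 arrays and Il4 on 2 arrays of each group, and none of the 4 was tested. Of 7 tested eosinophil genes 5 were higher and 2 lower, and Prg2, a granule protein, fell by 1.89 (SE 0.31, adjusted p 0.0354). The highest, Il5ra, named after its values were seen, had overlapping groups (SE of the difference 1.52, adjusted p 0.569). Epx, the eosinophil peroxidase, was detected above background on 2 control arrays and 0 knockout arrays, and the eosinophil sum was 0.87 to 0.94 in controls and 0.71 to 1.54 in knockouts.

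**Figure D4:**
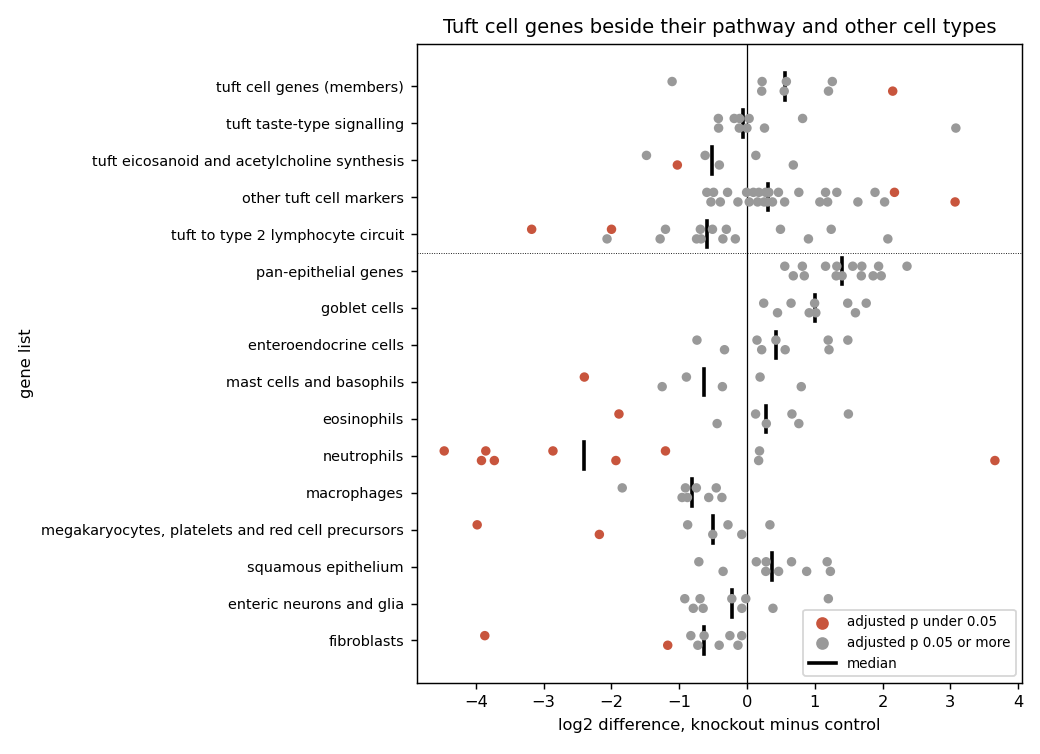
Log2 difference of each tested gene, knockout minus control, for the 8 tuft cell genes, the 4 lists of their pathway and 11 lists of other cell types, with list medians as black bars and genes with an adjusted p under 0.05 in red. The tuft cell genes have their median at 0.56, the pan-epithelial genes at 1.40 with all 15 above 0, and the circuit with type 2 cells at -0.59.

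The directions and calls of 3 of the genes were followed through every setting tried. Trpm5 was higher in 18 of 18 other settings and called in 12 of them, with differences from 0.76 to 2.34. The first Dclk1 probe was lower in 18 of 18, from -2.49 to -0.73, and called in 2. Pou2f3 was higher in 16 of the 17 settings in which it was tested, from -0.13 to 1.53, and called in 2.

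**Figure D5:**
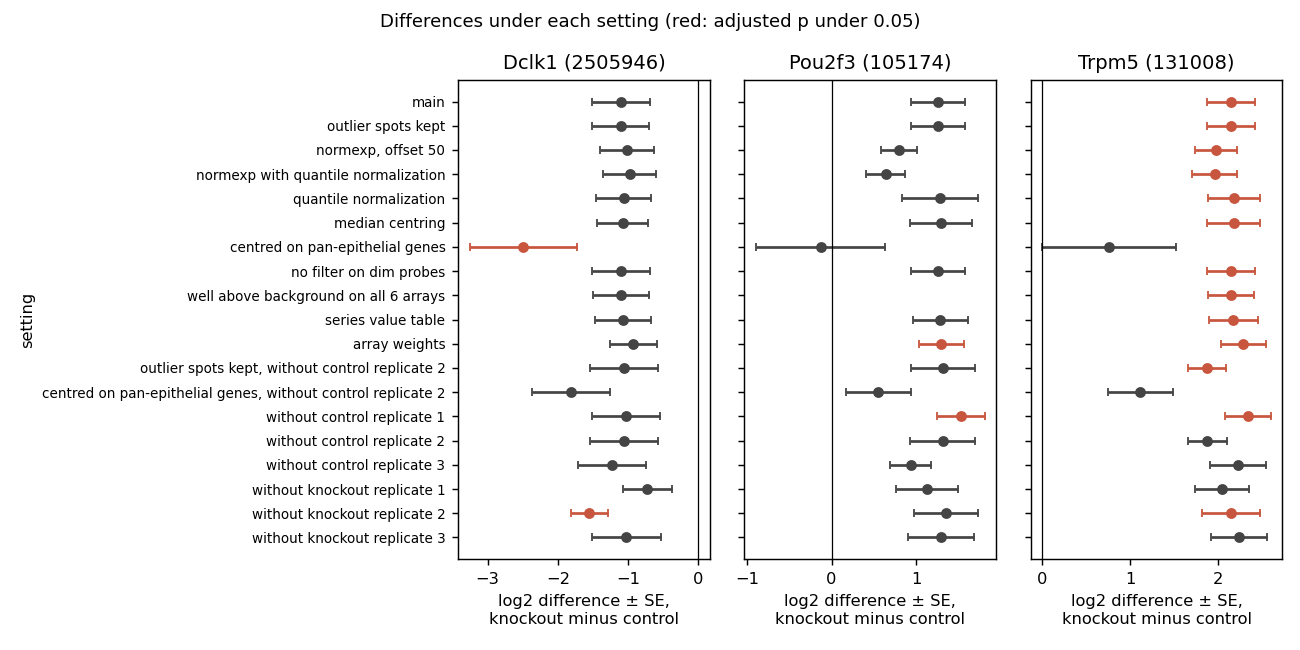
Log2 difference, knockout minus control, with its SE (bars) for Dclk1, Pou2f3 and Trpm5 in the reported fit (top row) and in each other setting, in red where the adjusted p is under 0.05. Trpm5 stays right of 0 throughout and comes closest to it relative to pan-epithelial genes, at 0.76, where Dclk1 reaches -2.49 and Pou2f3 -0.13.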

How the data were processed

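Signals were read from the 6 deposited scanner files, whose processed signal is a linear intensity, background-subtracted and spatially detrended by Agilent Feature Extraction 11.5.1.1, per the file headers; the submitters' processing notes name version 10.7. The labels name Cy3 and a green column, while the files hold the red channel, which was used. The series' value table, also deposited as intensity, served as an alternative.

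Levels are log2 of the deposited signal minus the array's 75th percentile over non-control spots. Outlier spots were treated as missing and spots of a probe averaged. A probe was tested if every array of 1 or both groups showed it well above background, with at least 2 usable values per group. Differences were fitted in limma 3.58.1 (R 4.3.3; lmFit and eBayes, genotype as the only term, Benjamini-Hochberg over all 35351 tested probes, two-sided) after the procedure was tested on simulated data. The number of arrays limits the precision. The labels name no litters or cages, and p-values cover the spread between these animals only. Exact permutation tests compared 3 with 3 arrays, with outlier spots kept.

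Probes were named through RefSeq accessions (assembly GRCm38.p6), which gave 33767 of 56605 probes a name. The files place probes on another mouse build, mm9, so no probe position is given. The tested probe with the highest mean stood for a gene in lists, or the brightest probe in sums where none was tested. For Pou2f3 this was the dimmer of its probes, as the brighter one was not tested. Summed signals weigh the brightest probes of a list most. Named are all members, Islr, called genes and the highest and lowest of each pathway list, and, for other cell types, up to 5 called genes a list and defining markers; not every gene so named is described. Members and lists were chosen with earlier results of these data known. Alternatives were normexp background correction (offset 50), quantile and median normalization, centring on pan-epithelial genes, other filters, array weights, the value table and leaving out each array.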

Additional observations from a re-analysis of the deposited data

How the results depend on the processing

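No paired analysis was possible because the labels carry no shared replicate numbers; the numbers only name the animals. Calls over all probes, 1403 as reported, were 2558 with normexp, 2773 with normexp and quantile normalization, 2185 with quantile normalization, 2249 with median centring, 3819 when centred on pan-epithelial genes, 484 with no filter on dim probes and 7320 with array weights, and 40 to 2114 with an array left out. The share of calls that were higher was 39.1%, but 51.1% with normexp, 1.34% with pan-epithelial centring and 49.7% with array weights. It was 4 of 40 calls without knockout replicate 3, 24.7% without knockout replicate 1, 26.5% without knockout replicate 2, 29.6% without control replicate 2 and 55.1% without control replicate 1. The 2 further settings were chosen after seeing the data and leave out control replicate 2: with outlier spots kept it gave 178 calls, and with pan-epithelial centring 754. Tuft cell genes called numbered 2 with array weights, 0 with that last setting, 0 to 2 with an array left out and 1 elsewhere. The median difference of the tuft cell genes, 0.56 as reported, was -0.86 with pan-epithelial centring (-0.042 without control replicate 2) and 0.22 with no filter. It was 0.39 over probes well above background on all arrays, and 0.23 to 0.93 with an array left out.

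Pan-epithelial centring subtracts 1.39 from each difference measured on all 6 arrays, so any smaller positive difference turns by construction. It did so, at no called probe, for Alox5 (-0.91), the brighter Avil probe (-1.17), Gfi1b (-0.19), Hpgds (-1.48), Il25 (-0.81), Pou2f3 (-0.13), Ltc4s (-0.70), Krt8 (-0.57), Muc2 (-0.39), Chga (-0.82) and Trp63 (-1.25). With control replicate 2 also left out it did so for Alox5 (-0.45), Avil (-0.58), Il25 (-0.042), Ltc4s (-0.19), Krt8 (-0.38), Muc2 (-0.35), Chga (-0.47) and Trp63 (-0.73). The second Avil probe, near 0, was 0.065 with quantile normalization, 0.022 with median centring, 0.016 in the value table, 0.060 with array weights and -0.18 to 0.21 with an array left out. Trp63 was -0.056 with normexp and quantile normalization and -0.030 with quantile normalization. Krt5 was 0.14 with array weights and -0.80 to 0.32 with an array left out. The cause of the changes other than by centring was not tested. Dim probes limit Pou2f3, Gfi1b, Sucnr1, Itprid1 and Gnat3, whose control signals were at or near background, and outlier spots limit Alox5, Hpgds and 1 Dclk1 probe.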
